A study of Mus musculus with 11 samples.

Results

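Ribosome footprints that lay on the same side of sham in both hemispheres after a stroke were described in mouse cortex. The comparison used all 11 libraries of the series: 8 from animals with middle cerebral artery occlusion (MCAO), which are 4 of the occluded (ipsilateral) hemisphere and 4 of the opposite (contralateral) hemisphere, against 3 from sham animals. The hemispheres were given equal weight, and a gene counted as shared when its log2 change from sham had the same sign in each. Of 4338 genes in the table, 3835 passed the filter on low counts. Of these, 1290 were higher than sham in each hemisphere (33.6%) and 1320 were lower in each (34.4%), before any test. Both signs are taken against the same 3 sham libraries, which favours a like sign, so these shares alone do not show a shared change. After the test of the mean of both hemispheres against sham, 1 gene was left, Prg4, which encodes lubricin and was higher. The call did not hold with the day of surgery as a block (adjusted p 0.112, edgeR), and Prg4 did not pass in the contralateral hemisphere alone.

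The mice were wild-type C57BL6, 7 to 8 weeks old. In the MCAO animals a filament blocked the right middle cerebral artery for 35 min, the common carotid artery was tied meanwhile, and the tissue was taken after 3 h of reperfusion. Sham animals had the anaesthesia and the exposed arteries without the filament, so they carry those steps too, and the labels give no side for their cortex. Sham replicates are numbered 1, 2 and 5, contralateral replicates 1, 4, 5 and 6, and ipsilateral replicates 2, 4, 5 and 6; values below follow that order. A number stands for a day of surgery, so days 4 and 6 hold no sham library, and whether the hemispheres of a number share an animal is not in the labels. The tissue entry of the ipsilateral samples names the other hemisphere, and their titles were followed.

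A ribosome footprint is the piece of messenger RNA that a ribosome shields from nuclease, and its count reflects how much of a transcript is present and how densely ribosomes sit on it. These were not told apart here. In tissue, fewer cells of a type and less RNA per cell cannot be told apart either. Both comparisons with sham use the same 3 sham libraries, so a sham library that is low for a gene raises both hemispheres at once. Middle cerebral artery occlusion starves the cortex and striatum on its side of blood flow, while the opposite hemisphere keeps its flow but shares the surgery, the circulation and the nerve fibres that cross the midline. Proteins bound for the membrane or for secretion fold in the endoplasmic reticulum (ER) with the help of chaperones, and an overload of that compartment is known to raise the chaperones' genes through the unfolded protein response.

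Library totals, each gene counted once, ran from 64460 to 256657 in sham, from 137372 to 571351 in contralateral and from 35068 to 137341 in ipsilateral cortex. A count of 0 in a library still allows 3 counts, which is 5.25 CPM (counts per 1e6 counts of the library) in the deepest library and 85.55 CPM in the shallowest, for counting error only. Ipsilateral replicate 4, sham replicate 2 and ipsilateral replicate 6 lay apart from the rest on principal components 1, 2 and 3, which held 30.3%, 18.3% and 12.4% of the variance. Of the markers set down for cortex cells, 25 of 26 pan-neuronal and 23 of 23 astrocyte genes were in the table. Genes of other sources were mostly not: 5 of 28 endothelial and pericyte, 4 of 19 meningeal and fibroblast, 5 of 21 blood and leukocyte and 1 of 17 choroid plexus and ependyma markers were in it, and Ttr was not. The table lists only transcripts with a summed count of at least 101, so a missing marker may be low, absent or filtered out.

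Prg4 encodes lubricin, a secreted, heavily glycosylated protein known for lubricating joints. Its footprint level in sham was 31.4, 15.7 and 42.4 CPM. The contralateral libraries gave 142, 45.9, 97.6 and 101 CPM, and the ipsilateral libraries 172, 235, 74.2 and 344 CPM. Each of the 8 MCAO libraries lay above the highest sham library, with contralateral replicate 4 closest to it. Over both hemispheres the log2 change from sham was 2.08 ± 0.40 (SE), with a 95% interval of 1.26 to 2.90 and an adjusted p of 0.0445 (edgeR quasi-likelihood test, Benjamini-Hochberg over 3835 genes). Prg4 was thus 1 of 3835 genes called higher (0.0261%), and 0 were called lower (0%), in a fit of 3 groups without the day of surgery. The log2 change was 1.54 in the contralateral hemisphere (unadjusted p 0.00133, adjusted p 0.636) and 2.62 in the ipsilateral one (adjusted p 0.00257, edgeR). The difference between hemispheres, 1.08 with an interval of 0.45 to 1.71, had an adjusted p of 0.174 (edgeR).

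The counts behind Prg4 are small. Sham held 8, 1 and 8 counts, contralateral cortex 21, 6, 29 and 57 and ipsilateral cortex 23, 8, 6 and 40. Same-day log2 changes were taken with a prior count of 2, which pulls values at low counts toward 0, unlike the fitted changes. Against the sham library of the same day, Prg4 gave 1.85 and 1.03 in contralateral replicates 1 and 5. Ipsilateral replicates 2 and 5 gave 2.78 and 0.68, so all 4 same-day values lay above 0. With the replicate number as a block in edgeR the log2 change was 2.14, and its adjusted p of 0.112 no longer passed. Leaving out sham replicate 1, 2 or 5 gave adjusted p of 0.713, 0.282 and 0.224. Leaving out contralateral replicate 1, 5 or 6 gave 0.0704, 0.103 and 0.126, and leaving out ipsilateral replicate 4 gave 0.0843. The log2 change itself stayed between 1.84 and 2.33 when any 1 library was left out. DESeq2 gave an adjusted p of 0.017 and limma-voom one of 0.467.

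The gene lies on the minus strand at chr1:150449412-150466165 (mm10). Its transcript shares 67 nt with Tpr, a nuclear pore gene on the other strand, and the use of strand in the counting is not given in the sources used here. Tpr lay on the other side of sham: sham libraries held 208, 78.5 and 148 CPM, and the MCAO libraries held 74.7 to 168 CPM, a log2 change of -0.69 (unadjusted p 0.0104, adjusted p 0.648, edgeR), which was -0.33 without sham replicate 1. Of the 19 meningeal and fibroblast markers, 4 were tested, Prg4 among them. The other 3 gave log2 changes of 0.18 for Dcn, 0.13 for Igfbp2 and -0.17 for Ccn3, and none passed the test. Ccn3 is also on the list of cortical layer markers, so its value does not stand for the coverings alone. Col1a1, Col1a2 and Lum, which define fibroblasts of the brain's coverings, were not among the transcripts in the table.

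**Figure D1:**
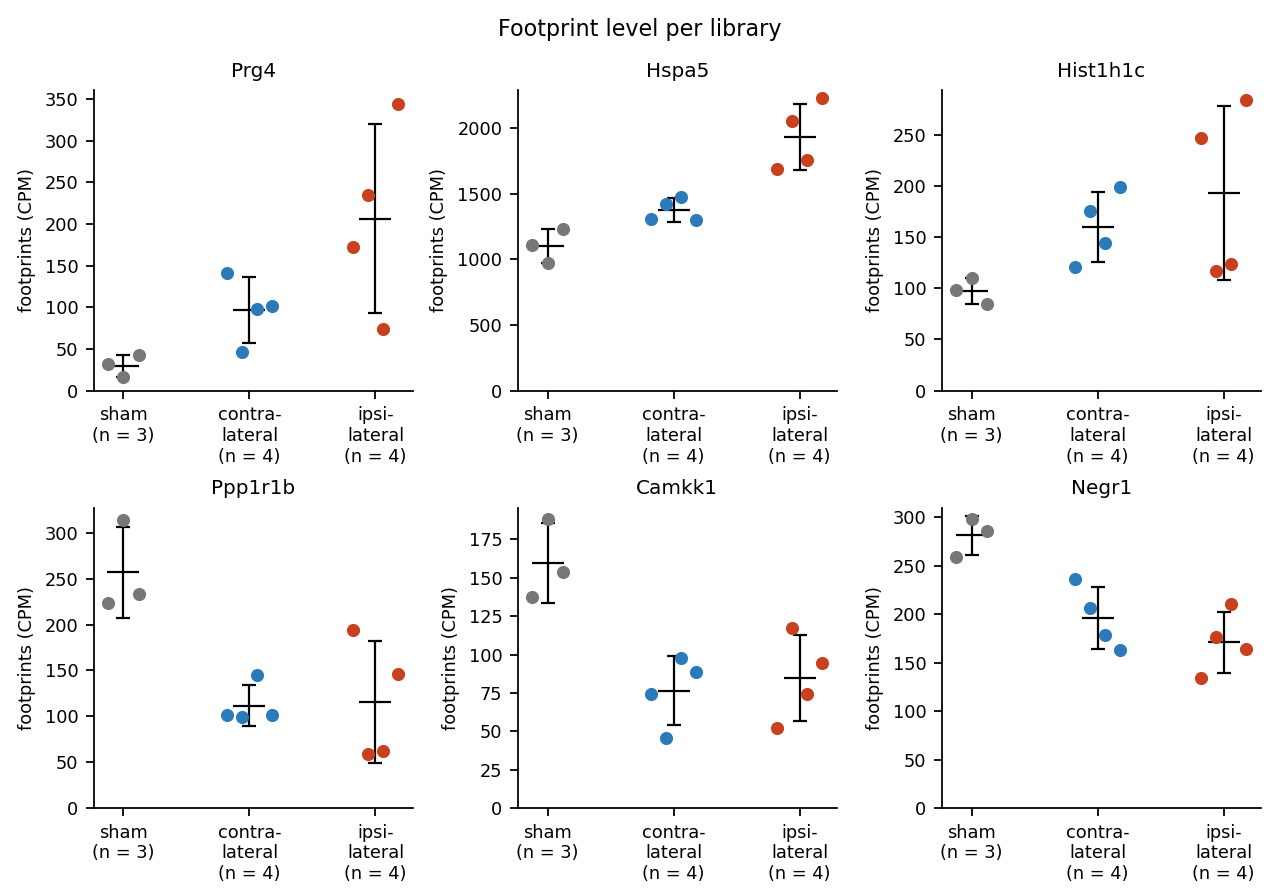
Footprint level (CPM, linear axis from 0) of 6 genes in each library, 1 point per library, with the mean as a horizontal line and the SD as a bar for sham (n = 3), contralateral (n = 4) and ipsilateral (n = 4) cortex. In the upper row all 8 MCAO points lie above the 3 sham points, and in the lower row all 8 lie below them; only Prg4 passed the test over all genes.

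Below the threshold the ranking held more genes than Prg4. At an unadjusted p under 0.05, 119 genes were higher in each hemisphere (3.1%), 129 were lower in each (3.36%) and 3 had opposite signs (0.0782%), in all 251 genes (6.54%). At that p in each hemisphere taken alone, 37 genes were higher (0.965%) and 27 were lower (0.704%). All 8 MCAO libraries lay above all sham libraries for 30 genes (0.782%) and below them for 33 (0.86%). Those of lowest p among them, 10 on the higher and 9 on the lower side, are described below with their values. Lying outside sham in all 8 MCAO libraries was the rule that picked them, so its mention for a gene below is not a further result. Except for Prg4, none of them passed the test, and the verbs rose and fell are not used for them. Of 76 genes followed with each library left out in turn, 24 had a log2 change that differed by over 1.5 times or in sign from the value given. For 21 of them this came on leaving out a sham library. None of these 24 is among the 10 higher and 9 lower genes, but the rule that picked those genes favours such stability, so it is no added support. Txnip, among the higher genes, had a value in only 8 of the fits with 1 library left out. Prg4, Txnip and Raly were low in sham and passed the filter on low counts through MCAO libraries alone, which favours the higher side.

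Hspa5 encodes BiP, the main Hsp70 chaperone of the ER lumen. The sham libraries held 1107, 974 and 1234 CPM. Contralateral libraries held 1307, 1423, 1477 and 1297 CPM, and ipsilateral libraries 1689, 2053, 1757 and 2228 CPM. The 3 groups did not overlap, with contralateral cortex between the others. The log2 change over both hemispheres was 0.55 ± 0.14 (SE), with an interval of 0.27 to 0.83 and an adjusted p of 0.243 (edgeR). It was 0.30 in the contralateral hemisphere (unadjusted p 0.0525) and 0.79 in the ipsilateral one, where it passed the test of ipsilateral cortex against sham (adjusted p 0.00932, edgeR), 1 of 4 genes that did (0.104%). Same-day log2 changes were 0.24 and 0.26 in contralateral replicates 1 and 5 and 0.79 and 0.51 in ipsilateral replicates 2 and 5.

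The promoters of Hspa5 and of the ER genes Hsp90b1 and Canx are shown because they hold a sequence element known to answer the unfolded protein response. Those of Herpud1 and Pdia3, described below, held 0 matches and are not printed. Each line gives the 250 bases before the gene's start from RefSeq (GRCm38.p6), 5′ to 3′ on the gene's own strand, with matches to the ER stress element, searched on both strands as CCAAT and CCACG with any 9 bases between them, in capitals. The windows are chr2:34771840-34772089 on the plus strand for Hspa5, chr10:86705445-86705694 on the minus strand for Hsp90b1 and chr11:50325674-50325923 on the minus strand for Canx.
Hspa5: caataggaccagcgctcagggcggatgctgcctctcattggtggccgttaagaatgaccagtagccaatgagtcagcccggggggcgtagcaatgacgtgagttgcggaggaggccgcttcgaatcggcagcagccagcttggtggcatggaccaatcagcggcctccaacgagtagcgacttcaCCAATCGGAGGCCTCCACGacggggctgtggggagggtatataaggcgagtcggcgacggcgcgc
Hsp90b1: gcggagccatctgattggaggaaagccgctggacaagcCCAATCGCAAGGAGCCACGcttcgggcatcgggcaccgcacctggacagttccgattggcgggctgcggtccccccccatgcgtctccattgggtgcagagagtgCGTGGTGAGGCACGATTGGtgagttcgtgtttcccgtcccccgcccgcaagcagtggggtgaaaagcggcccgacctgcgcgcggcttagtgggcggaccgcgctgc
Canx: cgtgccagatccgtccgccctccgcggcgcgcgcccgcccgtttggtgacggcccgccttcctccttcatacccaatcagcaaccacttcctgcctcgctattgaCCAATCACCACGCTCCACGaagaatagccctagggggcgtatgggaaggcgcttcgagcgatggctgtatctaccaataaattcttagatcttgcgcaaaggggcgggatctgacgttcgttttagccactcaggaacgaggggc

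The match began 65 bases before the start in Hspa5 and 145 in Canx. Hsp90b1 held 2 matches, 212 bases before the start and, on the other strand, 107 bases before it. Over windows that also take in the 50 bases after the start, 8 of the 2904 tested genes with an entry held the element (0.275%), and 6 of these 8 were on the ER folding list, where 18 of 20 tested genes had an entry: Calr, Canx, Dnajc3, Hsp90b1, Hspa5 and Pdia6. The others were Adcy3 and Syvn1. The 6 genes with a match had a median log2 change of 0.32, from -0.11 for Dnajc3 to 0.55 for Hspa5. The 12 without one had a median of 0.27, from -0.19 to 0.50. Only this exact form of the element was searched, and whether it bears on the size of change was not tested. A match is a description of letters, not a site. Prg4 and Hyou1 had no entry.

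By group means, members of the ER folding list mostly lay above sham in both hemispheres, without any of them passing the test. Against sham of the same day, contralateral replicate 5 was mixed, with log2 changes from -0.498 for Dnajc3 to 0.48 for Txndc5. Dnajb9, Uggt1, Dnajb11, Pdia6, Ppib, Sec61a1, Calr and Herpud1 also lay below 0 there, and the other members above 0. Of 28 genes on the list, 22 were in the table and 20 were tested; 18 of the 20 had a log2 change above 0, 6 had an unadjusted p under 0.05 in the higher direction, 0 in the lower, and 0 were called. Of all genes tested, 1882 of 3835 lay above 0. The median log2 change of the 20 was 0.27 over both hemispheres, 0.21 in the contralateral and 0.33 in the ipsilateral one, beside -0.01 for all genes. Without sham replicate 2 and ipsilateral replicates 4 and 6, the libraries that lay apart, the median was 0.26.

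Among the chaperones, Hsp90b1, the Hsp90 of the ER, held 1162, 707 and 1477 CPM in sham, 1603, 1583, 1504 and 1907 CPM in contralateral and 1517, 1408, 1682 and 1445 CPM in ipsilateral cortex. Sham replicate 2 was the lowest library and sham replicate 5 lay among the MCAO values, so the groups overlapped. Its log2 change was 0.47 ± 0.15 (SE) (unadjusted p 0.00412, adjusted p 0.537, edgeR), 0.53 contralateral and 0.41 ipsilateral. Over both it was 0.27 without sham replicate 2 and 0.72 without sham replicate 5, and against sham of the same day it was 0.46 and 0.026 in contralateral replicates 1 and 5 and 1.09 and 0.186 in ipsilateral replicates 2 and 5. Hyou1, an Hsp110-type partner of BiP, held 338, 283 and 307 CPM in sham, 357, 405, 343 and 346 CPM in contralateral and 463, 587, 384 and 533 CPM in ipsilateral cortex. Every MCAO library of Hyou1 lay above sham, contralateral replicates 5 and 6 by little. Its log2 change was 0.41 over both, 0.20 contralateral and 0.62 ipsilateral (adjusted p 0.682 over both, edgeR). The cochaperones of BiP varied: log2 changes over both hemispheres were 0.30 for Dnajb11, -0.19 for Dnajb9 and -0.11 for Dnajc3, all with unadjusted p above 0.05.

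Calnexin and calreticulin are the lectin chaperones that hold newly made glycoproteins. Canx, calnexin, held 1186, 958 and 1271 CPM in sham, 1421, 1820, 1538 and 1494 CPM in contralateral and 1524, 1555, 1348 and 1385 CPM in ipsilateral cortex. All 8 MCAO libraries lay above sham, and the contralateral change was the larger: 0.44, against 0.33 ipsilateral and 0.39 ± 0.14 (SE) over both (adjusted p 0.537, edgeR). The difference between hemispheres was -0.11, with an interval of -0.40 to 0.17. Calr, calreticulin, gave 0.26 over both hemispheres (unadjusted p 0.0573), 0.23 contralateral and 0.29 ipsilateral; over both it was 0.15 without sham replicate 2 and 0.41 without sham replicate 5. Pdia3, the disulfide isomerase that works with both lectins, held 703, 754 and 831 CPM in sham and 826 to 1016 CPM in the MCAO libraries, where 1 library, contralateral replicate 4, lay below sham replicate 5. Its log2 change was 0.30 over both (unadjusted p 0.0388), 0.27 contralateral and 0.33 ipsilateral. The other isomerases P4hb, Pdia6 and Pdia4 gave 0.45, 0.22 and 0.21, with unadjusted p above 0.05.

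Herpud1 encodes a membrane protein of the machinery that removes misfolded proteins from the ER. It held 118, 126 and 164 CPM in sham, 162, 229, 162 and 188 CPM in contralateral and 172, 205, 284 and 181 CPM in ipsilateral cortex. Only sham replicate 5 reached into the MCAO range. The log2 change was 0.50 ± 0.23 (SE) (unadjusted p 0.0319, adjusted p 0.716, edgeR). Sel1l, of the same machinery, gave 0.08, and Xbp1, a transcription factor of the unfolded protein response, 0.39 with an unadjusted p of 0.112. Fkbp2, a prolyl isomerase of the ER that was not on the list, held 106, 126 and 127 CPM in sham, 155, 214, 202 and 172 CPM in contralateral and 224, 235, 198 and 249.5 CPM in ipsilateral cortex. All its MCAO libraries lay above sham, with a log2 change of 0.80 ± 0.22 (SE) over both hemispheres, 0.65 contralateral and 0.95 ipsilateral (adjusted p 0.272, edgeR).

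**Figure D2:**
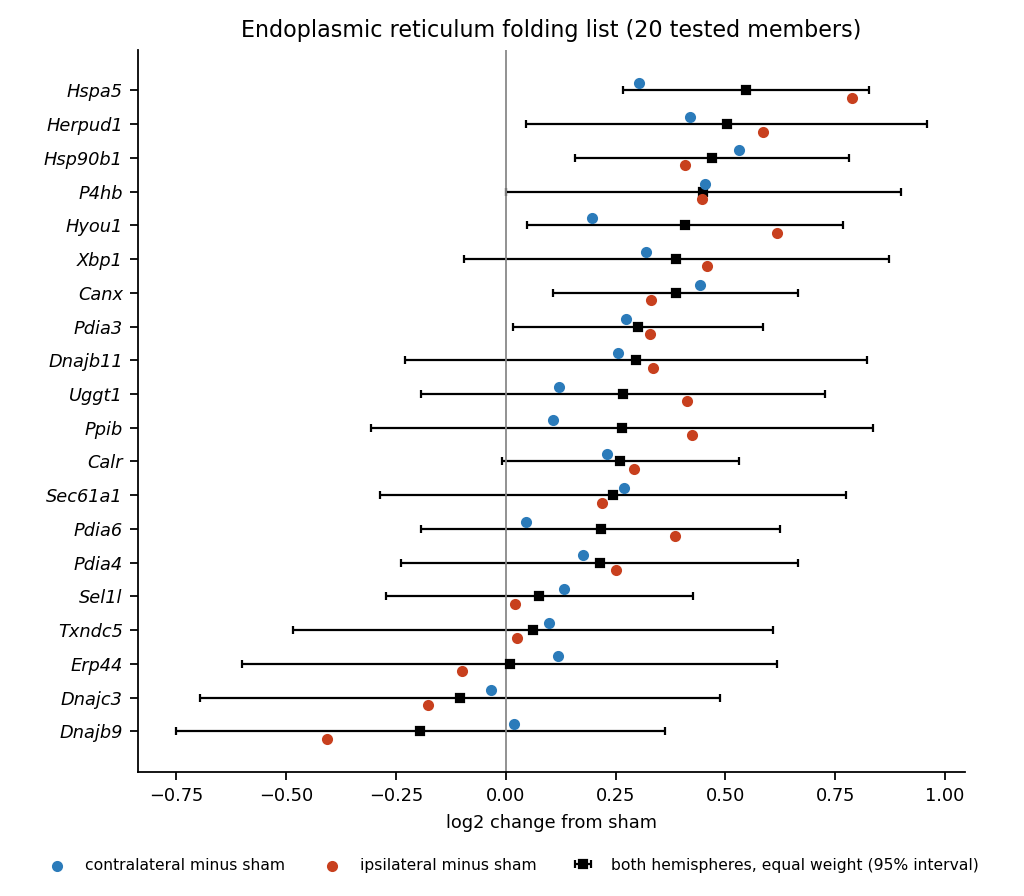
Log2 change from sham of the 20 tested ER folding genes, sorted by the change over both hemispheres (squares with 95% intervals); circles give the contralateral and the ipsilateral change. Both circles lie right of 0 for most genes, Canx and Hsp90b1 have the contralateral circle further right, and Hspa5 and Hyou1 the ipsilateral one.

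A list score, the mean log2 CPM of a list's members minus the sham mean, puts the members on 1 scale per library. For the ER folding list it ran from -0.12 to 0.12 in sham, from 0.14 to 0.39 in contralateral and from 0.23 to 0.36 in ipsilateral cortex. By day, sham replicate 1 scored 0.001 and contralateral replicate 1 scored 0.176, and sham replicate 2 scored -0.122 and ipsilateral replicate 2 scored 0.259. On day 5 sham scored 0.121, contralateral cortex 0.137 and ipsilateral cortex 0.28, so the contralateral library barely cleared sham of its day. Of 32 lists with at least 5 tested members, 2 had all 8 MCAO scores above all 3 sham scores and 0 had all 8 below. The other was cholesterol synthesis and sterol response, with -0.10 to 0.07 in sham, 0.10 to 0.53 in contralateral and 0.22 to 0.64 in ipsilateral cortex. On day 5 that list scored 0.075 in sham and 0.098 in contralateral cortex, so there too the contralateral library barely cleared sham. These scores all use the same 3 sham libraries.

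Cholesterol is made in the brain itself, largely by glia. Of 25 genes on its list 13 were tested; 11 of them had a log2 change above 0, 1 had an unadjusted p under 0.05 and 0 were called. The median was 0.34 over both hemispheres, 0.22 contralateral and 0.48 ipsilateral, and 0.14 without the 3 libraries that lay apart. Dhcr7, which encodes the enzyme of the last step to cholesterol in 1 branch of the pathway, held 39.3, 62.8 and 31.8 CPM in sham, 60.6, 130, 90.8 and 94.1 CPM in contralateral and 105, 117, 86.6 and 77.4 CPM in ipsilateral cortex. Sham replicate 2, with 4 counts, was just above contralateral replicate 1. The gene gave a log2 change of 1.22 ± 0.34 (SE) over both, 1.21 contralateral and 1.22 ipsilateral (adjusted p 0.272, edgeR). Insig1, which holds the sterol sensor in the ER, gave 0.87 with an unadjusted p above 0.05. It had a value in only 6 of the fits with 1 library left out. Its ipsilateral replicate 6 held 155 CPM and the other ipsilateral libraries 44.8 to 58.7 CPM. Sc5d and Sqle, enzymes of the pathway, gave 0.51 and 0.40, while Fdps and Msmo1 gave -0.07 and -0.06. Dhcr7 and Insig1 were low in sham and passed the filter on low counts through MCAO libraries alone, which favours a value above 0.

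Linker histones bind the DNA between nucleosomes. Hist1h1c, the H1.2 linker histone, held 98.2, 109.9 and 84.7 CPM in sham, 121, 176, 145 and 199 CPM in contralateral and 247, 117, 124 and 284 CPM in ipsilateral cortex. All MCAO libraries lay above sham, ipsilateral replicate 4 with 4 counts. The log2 change was 0.98 ± 0.26 (SE) over both, 0.80 contralateral and 1.16 ipsilateral (adjusted p 0.267, edgeR). Of 15 histone genes on the list, 7 were tested, and all 7 of those tested lay above 0; 4 had an unadjusted p under 0.05 and 0 were called. The others of the 4 were Hist1h1d at 1.20, Hist1h1e at 0.93 and Hist3h2a at 0.90, with groups that overlapped. The list's median was 0.90, and 0.49 without sham replicate 1. Hist1h1c shares 12.1% of its 28-base words with other tested genes, mainly Hist1h1d, so reads may have been split between them, and Hist1h1e and Hist3h2a share transcribed bases with neighbours.

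The remaining higher genes came from separate functions. Npy, the peptide transmitter neuropeptide Y of cortical interneurons, held 184, 157 and 228 CPM in sham, 249, 306, 293 and 311 CPM in contralateral and 291, 293, 334 and 249.5 CPM in ipsilateral cortex. The log2 changes were 0.58 contralateral and 0.57 ipsilateral, with 0.57 ± 0.20 (SE) over both (adjusted p 0.537, edgeR), and the interval of the difference between hemispheres was -0.42 to 0.41. Gucy1a1, a subunit of the guanylate cyclase that senses nitric oxide, held 74.6, 62.8 and 84.7 CPM in sham, 142, 107, 128 and 112 CPM in contralateral and 119.6, 147, 136 and 146 CPM in ipsilateral cortex. It stood at 0.73 over both hemispheres, 0.65 contralateral and 0.81 ipsilateral (adjusted p 0.568, edgeR). In both genes every MCAO library lay above every sham library, as the rule that picked them requires.

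Hdlbp and Raly encode RNA-binding proteins. Hdlbp held 310.2, 298 and 270 CPM in sham and 359 to 557 CPM in the MCAO libraries, and Raly 70.7, 31.4 and 63.5 CPM in sham and 91.8 to 129 CPM in MCAO. Hdlbp gave log2 changes of 0.52 contralateral and 0.59 ipsilateral, Raly 0.79 and 0.85; both had an adjusted p of 0.537 over both hemispheres (edgeR). Txnip, an inhibitor of thioredoxin that also limits glucose uptake, held 31.4, 0 and 31.8 CPM in sham, where replicate 2 had 0 counts, 80.8, 45.9, 37 and 63.9 CPM in contralateral and 105, 58.7, 111 and 68.8 CPM in ipsilateral cortex. Its log2 change was 1.37 ± 0.44 (SE), 1.04 contralateral and 1.70 ipsilateral (adjusted p 0.537, edgeR), and it shares 603 nt with Gm15441 on the other strand.

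**Figure D3:**
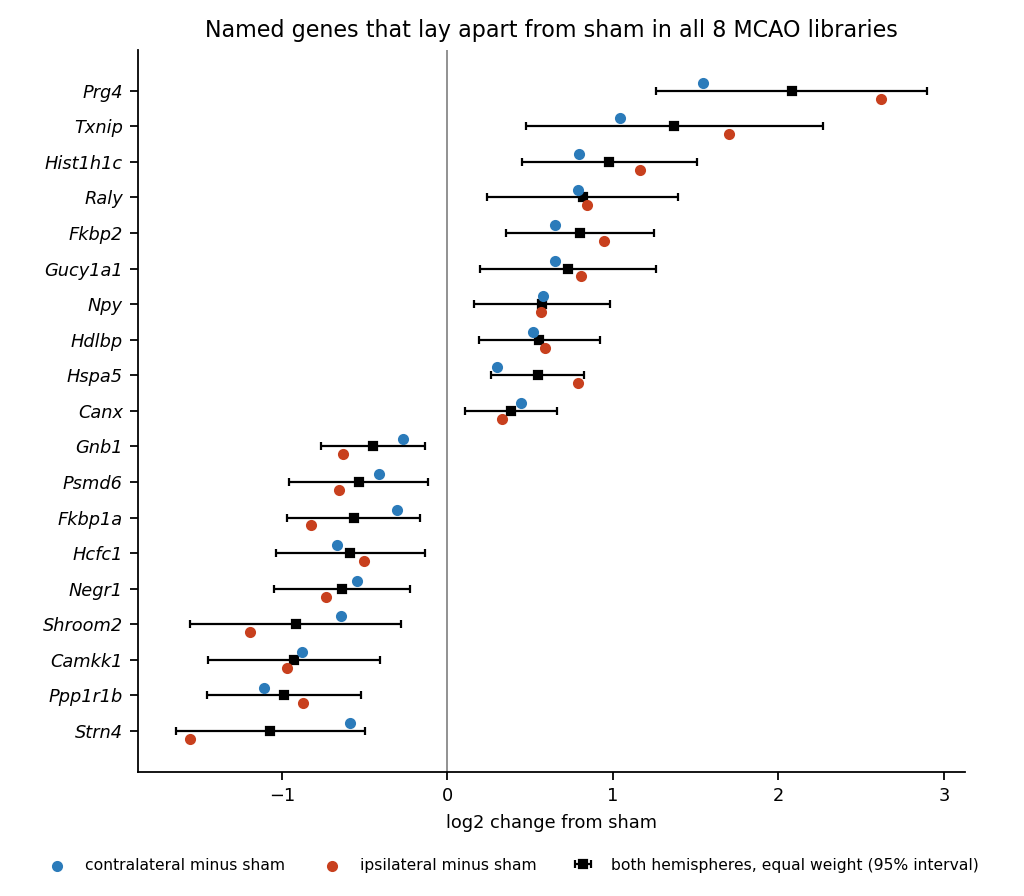
Log2 change from sham of 19 genes of lowest p among those whose 8 MCAO libraries all lay outside the sham range, 10 higher and 9 lower; squares are the change over both hemispheres with 95% intervals, circles the change in each hemisphere. Only Prg4 passed the test over all genes; Npy, Hdlbp, Raly and Camkk1 have both circles close together, whereas Strn4 and Prg4 have the ipsilateral circle further from 0.

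Ppp1r1b had the lowest p among the lower genes. It encodes DARPP-32, the phosphatase inhibitor through which striatal projection neurons answer dopamine. The sham libraries held 224, 314 and 233 CPM. Contralateral libraries held 101, 99.4, 145 and 101 CPM, and ipsilateral libraries 194, 58.7, 61.9 and 146 CPM. All 8 lay below sham, and the ipsilateral libraries split into 2 high and 2 low ones. The log2 change was -0.99 ± 0.23 (SE), with an interval of -1.45 to -0.52 and an adjusted p of 0.207 (edgeR). It was -1.11 contralateral and -0.87 ipsilateral, and same-day values were -1.07 and -0.65 for contralateral replicates 1 and 5 and -0.66 and -1.75 for ipsilateral replicates 2 and 5. Without ipsilateral replicate 2 the adjusted p was 0.0279 (edgeR).

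Other markers of striatal projection neurons differed between libraries of the same hemisphere. Of 17 markers on the list 7 were tested, and 6 of the 7 lay below 0, with 2 at an unadjusted p under 0.05 and 0 called. Penk, enkephalin, held 456, 393 and 201 CPM in sham, 424, 76.5, 77.4 and 163 CPM in contralateral and 336, 147, 99 and 301 CPM in ipsilateral cortex. Contralateral replicate 1 and ipsilateral replicates 2 and 6 were the highest MCAO libraries for Penk and had list scores of 0.00, -0.06 and -0.12. The other 5 MCAO libraries had scores from -1.22 to -0.78, and sham from -0.31 to 0.18. The summed level of the 7 markers was 900.1 to 1367 CPM in sham, 535 to 1152 in contralateral and 483 to 1054 in ipsilateral cortex. Drd1, Drd2 and Adora2a were not in the table. The part of striatal tissue in these values was not tested.

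Among signalling genes on the lower side, Camkk1, a kinase that switches on other calmodulin-dependent kinases, held 137, 188 and 154 CPM in sham, 74.1, 45.9, 97.6 and 88.8 CPM in contralateral and 52.3, 117, 74.2 and 94.6 CPM in ipsilateral cortex. The log2 changes were -0.88 contralateral and -0.97 ipsilateral, with -0.92 ± 0.26 (SE) over both (adjusted p 0.272, edgeR). The interval of the difference between hemispheres was -0.75 to 0.57. Strn4, a scaffold of protein phosphatase PP2A, held 149, 173 and 154 CPM in sham, 94.3, 99.4, 77.4 and 126 CPM in contralateral and 14.9, 29.3, 86.6 and 77.4 CPM in ipsilateral cortex. It stood at -1.07 ± 0.28 (SE) over both, -0.59 contralateral and -1.55 ipsilateral (adjusted p 0.267, edgeR), with 1 and 2 counts in ipsilateral replicates 4 and 2. Gnb1, the G protein beta subunit, gave -0.26 contralateral and -0.63 ipsilateral from a sham level of 636 ± 54.7 CPM (SD, n = 3). Fkbp1a, the binding protein of the drug FK506, gave -0.31 and -0.82 from 322 ± 22.9 CPM (SD, n = 3). In all 4 genes the MCAO libraries lay below sham.

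Negr1 encodes an adhesion molecule of the neuronal surface. It held 259, 298 and 286 CPM in sham, 236, 206, 178 and 163 CPM in contralateral and 134, 176, 210.3 and 164 CPM in ipsilateral cortex. All 8 lay below sham, with a log2 change of -0.64 ± 0.20 (SE) over both, -0.54 contralateral and -0.73 ipsilateral (adjusted p 0.537, edgeR). Shroom2, which encodes an actin-binding protein, gave -0.92 over both hemispheres (adjusted p 0.537, edgeR), with 7, 0, 5 and 4 counts in the ipsilateral libraries. Hcfc1, a coregulator of transcription, held 173, 173 and 169 CPM in sham and 99.5 to 136 CPM in MCAO, a log2 change of -0.58 (adjusted p 0.648, edgeR). Psmd6, of the proteasome's regulatory particle, held 232, 236 and 212 CPM in sham and 94.6 to 186 CPM in MCAO, a log2 change of -0.54 (adjusted p 0.648, edgeR).

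Lists of protein turnover, transmitter release and respiration had medians closer to 0. On the ubiquitin and proteasome list, 29 of 40 tested genes lay below 0, with 4 at an unadjusted p under 0.05 in the lower direction (Psmd6, Psmb5, Uchl1 and Psmc3), 1 in the higher, and 0 called; the median was -0.13. On the synaptic vesicle list 26 of 39 lay below 0, 5 at an unadjusted p under 0.05, with a median of -0.06. Among them were Cplx2 at -0.54, Napa at -0.50, Snap91 at -0.37 and Vamp2 at -0.37, parts of the release and recycling machinery. Syt2, a fast calcium sensor of release, lay on the higher side: 134, 78.5 and 132 CPM in sham, 142, 283, 229 and 178 CPM in contralateral and 291, 117, 259.8 and 189 CPM in ipsilateral cortex, a log2 change of 0.81 (adjusted p 0.513, edgeR). Of 53 oxidative phosphorylation genes 34 lay below 0, with a median of -0.10; Sdhd and Atp5g1 gave -0.90 and -0.60, and Cox7c 0.61. None of these passed the test.

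Genes driven by the circadian clock lay mostly on the lower side. Of 19 on the list 11 were tested, 9 lay below 0 and 3 had an unadjusted p under 0.05: Dbp at -0.64, Hlf at -0.58 and Bhlhe40 at -0.48. Dbp and Hlf encode PAR-domain transcription factors that clocks drive with a strong daily rhythm, and Bhlhe40 a repressor within the clock. Dbp held 137, 94.2 and 164 CPM in sham, 114, 91.8, 80.8 and 72.8 CPM in contralateral and 112, 58.7, 99 and 86 CPM in ipsilateral cortex, so sham replicate 2 overlapped with MCAO. Against sham of the same day Dbp gave -0.24 and -0.93 contralaterally on days 1 and 5 and 0.23 and -0.67 ipsilaterally on days 2 and 5. The time of day of the dissections is not given in the labels.

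Some lists had a median away from 0 in 1 hemisphere and near 0 in the other. The 14 tested immediate early genes, which neurons switch on within minutes of activity, had a median of -0.71 contralaterally and 0.01 ipsilaterally. Egr1, a zinc finger factor of this class, held 636, 549.7 and 201 CPM in sham, 168, 130, 168 and 167 CPM in contralateral and 172, 411, 284 and 525 CPM in ipsilateral cortex. Sham replicate 5 lay far below the other sham libraries, and the log2 change of -0.97 over both hemispheres depended on the sham libraries. Without sham replicate 5 it was -1.36 and was called (adjusted p 0.00969, edgeR), and without sham replicate 1 it was -0.51 (adjusted p 0.919, edgeR). Fos held 161, 173 and 37.1 CPM in sham, 13.5, 7.65, 33.6 and 32 CPM in contralateral and 172, 205, 124 and 361 CPM in ipsilateral cortex, with sham replicate 5 again the lowest of sham. Fos gave -2.09 contralaterally and 0.94 ipsilaterally, and -1.48 and 1.54 without sham replicate 1. Against sham of the same day Fos gave -2.82 and -0.11 in contralateral replicates 1 and 5 and -0.01 and 1.49 in ipsilateral replicates 2 and 5. Hspa1a, the inducible cytosolic Hsp70, stood at 2.81 over both hemispheres (adjusted p 0.213, edgeR) from 5.28 in the ipsilateral and 0.34 in the contralateral hemisphere, and its near copy Hspa1b at 5.22 and 0.23. The 16 oligodendrocyte and myelin genes tested had a median of -0.02 contralaterally and 0.89 ipsilaterally.

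Microglia are the resident immune cells of the brain. Of 21 markers 13 were tested, 12 lay above 0, 5 had an unadjusted p under 0.05 (among them Cx3cr1, C1qc, Ctss and Lgmn) and 0 were called. The median was 0.45 over both hemispheres, 0.20 contralateral and 0.71 ipsilateral, and the summed level was 2309 to 2716 CPM in sham, 2681 to 3128 in contralateral and 3192 to 4136 in ipsilateral cortex. Cx3cr1, the fractalkine receptor, held 39.3, 15.7 and 63.5 CPM in sham, 87.6, 68.8, 104 and 58.6 CPM in contralateral and 89.7, 147, 124 and 129 CPM in ipsilateral cortex; contralateral replicate 6 lay below sham replicate 5. Cx3cr1 gave a log2 change of 1.06 ± 0.34 (SE) (adjusted p 0.537, edgeR). It was low in sham and passed the filter on low counts through MCAO libraries alone, which favours a value above 0. Tmem119, Aif1 and Trem2 were not in the table. Whether the share of microglia in the tissue differed was not tested. The 23 astrocyte markers had a median of 0.17 and summed levels of 31520 to 39370 CPM in sham, 33690 to 45550 in contralateral and 37170 to 39080 in ipsilateral cortex, where all 4 libraries lay within the sham range. That median was 0.06 without sham replicate 1.

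**Figure D4:**
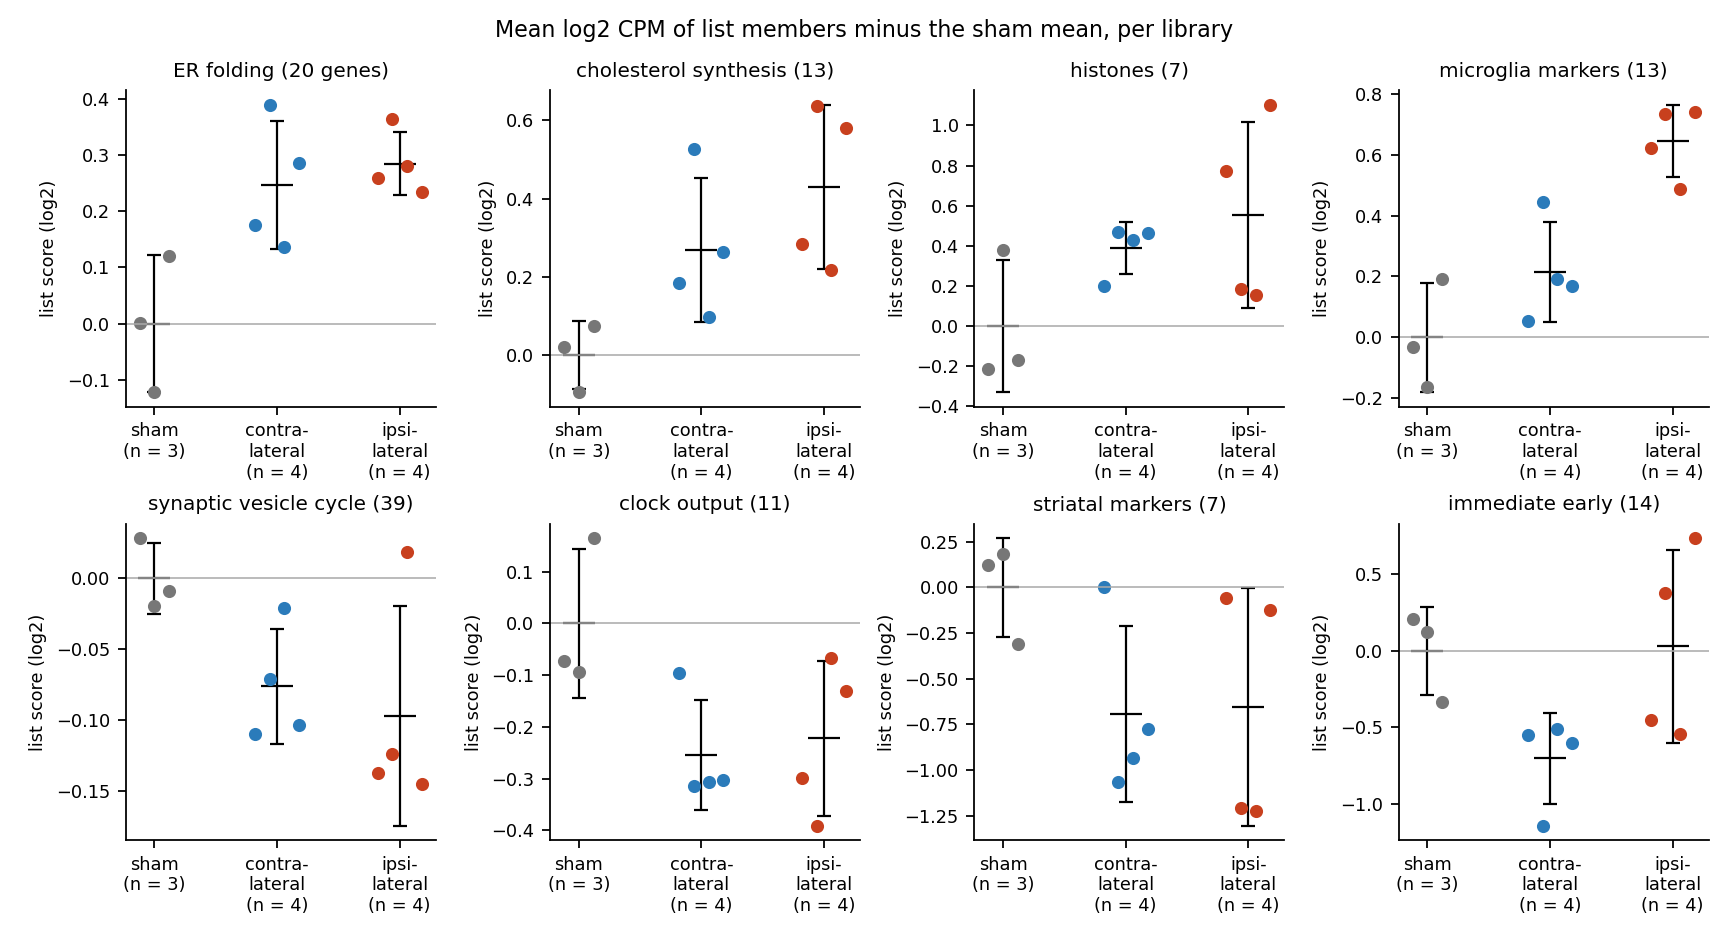
List score (mean log2 CPM of the tested members minus the sham mean) of 8 gene lists in each library, 1 point per library, with the mean as a line and the SD as a bar for sham (n = 3), contralateral (n = 4) and ipsilateral (n = 4) cortex. All 8 MCAO scores lie above sham for ER folding and cholesterol synthesis, the striatal scores split into 3 libraries near 0 and 5 far below, and the immediate early scores lie below sham in all 4 contralateral and 2 of 4 ipsilateral libraries.

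The series concerns glutamate balance, and its main genes gave small values. Slc1a1, the neuronal glutamate transporter, held 208, 94.2 and 228 CPM in sham, 209, 291, 286 and 275 CPM in contralateral and 299, 235, 297 and 267 CPM in ipsilateral cortex. Its log2 change was 0.50 over both, 0.47 contralateral and 0.54 ipsilateral, with an unadjusted p of 0.0245 and an adjusted p of 0.674 (edgeR), and 0.33 over both without sham replicate 2. The glial transporters Slc1a2 and Slc1a3 gave 0.25 and 0.25. Slc1a2 was further from sham contralaterally, at 0.43 against 0.08 ipsilaterally. Glul, glutamine synthetase, gave 0.02 with an interval of -0.22 to 0.26. Of 21 tested genes of glutamate transport and metabolism, 15 lay above 0, 1 had an unadjusted p under 0.05, 0 were called, and the median was 0.04. The 18 glutamate receptors had a median of 0.12.

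A list of glucocorticoid-responsive genes, which hormones of the adrenal cortex are known to regulate, was evenly split. Of 20 tested genes 10 lay above 0 and 10 below, with a median of 0.00. Its 3 genes of lowest p were all higher over both hemispheres. Apod, a lipid carrier of glia, stood at 1.06, Txnip at 1.37 and Cdkn1a, an inhibitor of the cell cycle, at 0.80. The Cdkn1a value came mostly from the ipsilateral hemisphere, at 1.42 against 0.18 contralaterally. Apod held 122, 78.5 and 106 CPM in sham, 94.3, 275, 168 and 204 CPM in contralateral and 306, 352, 124 and 336 CPM in ipsilateral cortex, so contralateral replicate 1 lay within sham. Without ipsilateral replicate 5 it passed the test (adjusted p 0.0457, edgeR). Fkbp5, Sgk1 and Tsc22d3, known targets of the glucocorticoid receptor, gave -0.13, 0.12 and -0.03.

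**Figure D5:**
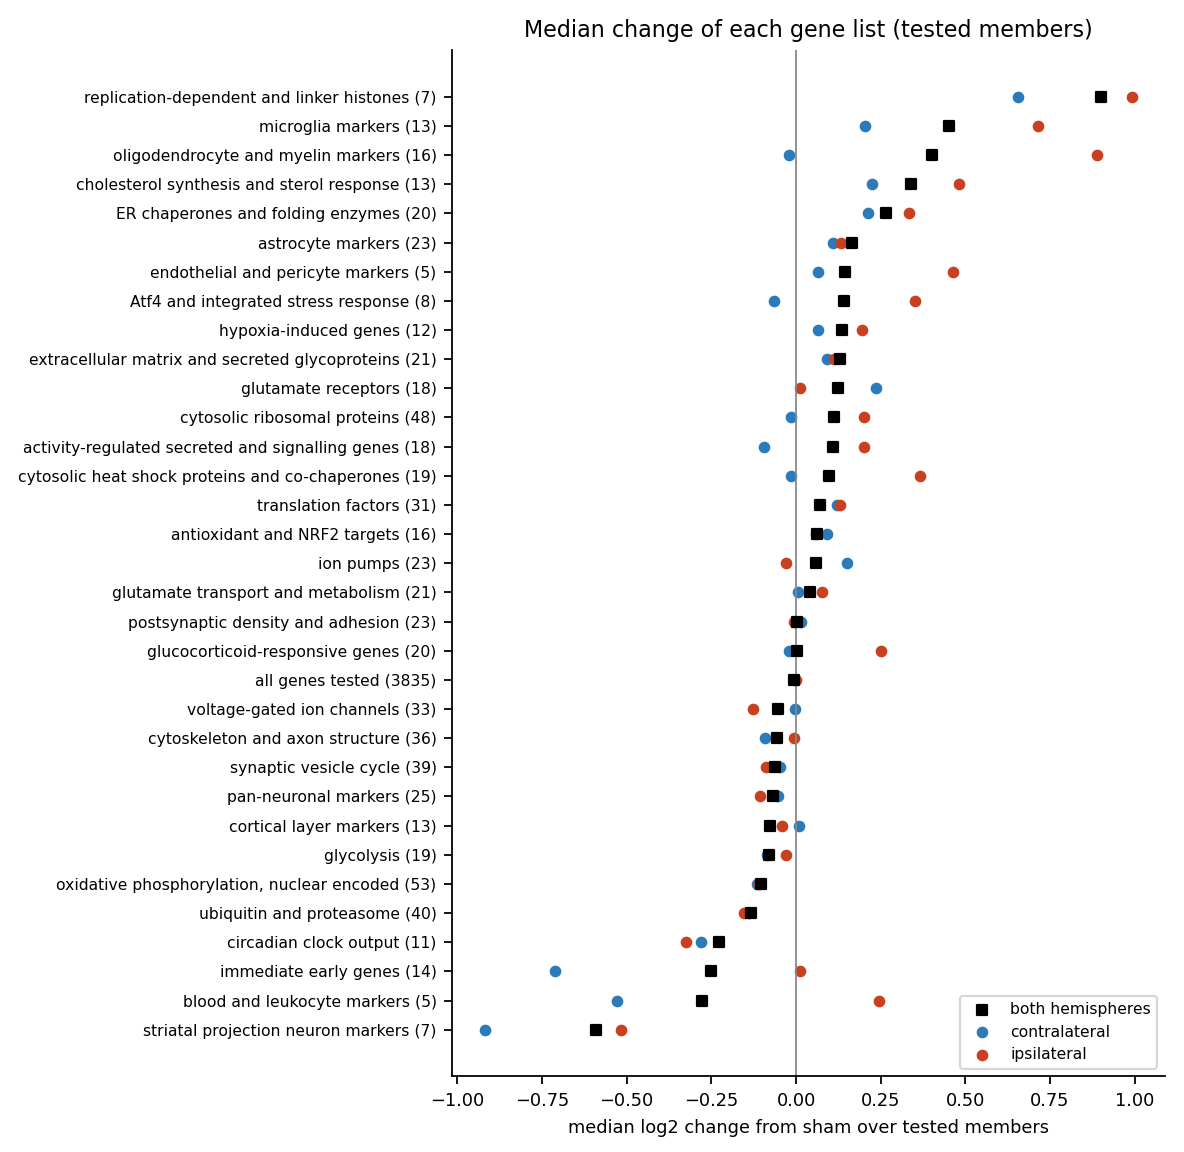
Median log2 change from sham over the tested members of each list with at least 5 of them, and over all genes tested; squares are both hemispheres with equal weight, circles each hemisphere, and the number of tested members stands after each name. Histones, microglia markers, cholesterol synthesis and ER folding lie right of 0 in both hemispheres, clock output and striatal markers left of 0 in both, and immediate early genes and oligodendrocyte markers near 0 in 1 hemisphere only.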

How the data were processed

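The libraries were footprints from cortex, digested with micrococcal nuclease, captured through the large ribosomal subunit and selected at 30 to 50 nt, per the labels' protocols. The authors deposited whole-number footprint counts per Ensembl transcript in 11 columns; the submitters' processing notes name Bowtie2, edgeR and mm10 with no version or role, and how footprints were counted, with which strand setting and filters, is not given in the sources used here. Of 9784 transcripts, 9736 matched GENCODE vM21 by identifier; the other 48 held 0.306% of counts and were left out. Each of 4338 genes was represented by its transcript of highest summed count, since isoforms of a gene repeat counts.

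Counts were fitted with edgeR 4.0.16 in R 4.3.3: filterByExpr with a minimum count of 10 (503 genes removed), TMM factors, robust quasi-likelihood fits of 3 groups and the contrast of the mean of both hemispheres minus sham, adjusted by Benjamini-Hochberg over 3835 genes at 0.05. The filter asks for a level in a set number of libraries of any group, so a gene low in sham can pass through MCAO libraries alone. The common dispersion was 0.0291. CPM values use TMM-scaled totals. List scores and same-day log2 changes use log2 CPM with a prior count of 2. On data simulated from these libraries, 72% of genes changed by a log2 of 1 and 94% of those changed by a log2 of 2 were called in this comparison, and 0.303% of unchanged genes. The simulation changed 100 genes by each size, alike in both hemispheres and without a day effect. So many true changes make the adjusted threshold easier to pass than in the real data, where 1 gene was called. The shares do not carry over: Hist1h1c, at a log2 change of 0.98, had an adjusted p of 0.267 (edgeR). Precision is limited by library totals of 35068 to 571351, by spread beyond counting noise and by the 3 sham libraries. The p-values measure the spread between these libraries taken as independent. Hemispheres of the same number share a day and may share an animal, so this is not the spread between animals.

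The members and the 38 gene lists were chosen with earlier results of these data known. Named genes were those called, at most 15 in each direction, filled up to 10 by lowest p among genes whose 8 MCAO libraries lay outside the sham range, plus up to 3 of lowest p per list and 4 glutamate genes; further genes were named after their values were seen: list members named for their role and Tpr for its overlap with Prg4. Not all of the genes this rule names are printed, and some items are not reported here. Promoters came from RefSeq tables (GRCm38.p6), and 2904 of 3835 genes had an entry. Besides the ER stress element, 7 motifs were searched on both strands: TGACGTGG, TGACGTCA, TGATGNAAN, ACANNNTGT, TCACNCCAC, the heat shock element (GAA, TTC and GAA, each 2 bases apart) and a core CArG box lay in 34, 114, 80, 138, 47, 23 and 1 of the 2904 promoters and in 0 to 2 of the 18 ER folding promoters.

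The replicate number marks the day of surgery, per the submitters' design text, so same-numbered libraries share a day; the 3-group fit above does not use it, and the fit with the number as a block is an alternative. Deviations from group means, correlated over genes, gave r of -0.139 to 0.224 (median 0.131) for the 7 same-number pairs and -0.255 to 0.259 (median -0.03) for the 33 others. Chi-square per degree of freedom was 1.42 to 2.88 in the 15 pairs within groups, so every pair differed by more than counting noise. Alternatives were DESeq2 1.42.0, limma-voom (limma 3.58.1), other scalings, filters and transcript sums, a replicate block, hemispheres summed, and libraries left out; library quality weights and leaving out the 3 libraries that lay apart were chosen after seeing the data.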

Additional observations from a re-analysis of the deposited data

Results flagged for a closer look

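For several genes the ipsilateral and contralateral libraries differed in the test of their difference (edgeR, adjusted over 3835 genes); in all, 13 genes were called higher ipsilaterally (0.339%) and 1 lower (0.0261%). Ipsilateral minus contralateral log2 values were 4.95 for Hspa1a and 4.99 for Hspa1b (adjusted p 0.00121 for each), 3.03 for Fos (0.00609), 1.53 for Cryab (0.0047), 1.09 for Mbp (0.00987) and 1.07 for Cldn11 (0.0372), all with edgeR.

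In 10 gene groups of 4 libraries, out of 164 looked at, 1 library lay far from the other 3; chance gives about 1 in 20 groups. On the contralateral side these were Ppp1r1b in replicate 5 (145 CPM, the others 99.4 to 101), Tac1 in replicate 1 (155 CPM, the others 22.9 to 33.6) and Tpr in replicate 1 (168 CPM, the others 94.2 to 103). Contralateral replicate 4 stood apart for Psmd6 (130 CPM, the others 174 to 182), Egr1 (130 CPM, the others 167 to 168) and Rtn1 (2690 CPM, the others 2160 to 2200). On the ipsilateral side these were Gnb1 in replicate 4 (293 CPM, the others 418 to 439), Insig1 in replicate 6 (155 CPM, the others 44.8 to 58.7), Napa in replicate 6 (215 CPM, the others 112 to 124) and Gap43 in replicate 2 (448 CPM, the others 232 to 264).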

How the results depend on the processing

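The count of 1 higher and 0 lower gene kept its value with DESeq2's size factors, upper quartile factors, no filter on low counts, hemispheres of a number summed, and Hspa1a and Hspa1b left out. The higher count was 3 with DESeq2 (Hspa1a, Hspa1b, Prg4), 2 with distinct transcripts summed and 2 without the 3 libraries that lay apart (Hspa1a and Hspa1b each time). It was 0 with limma-voom, with and without quality weights, at a minimum count of 30 (1192 genes tested, Prg4 not among them), with the replicate block, with the 8 MCAO libraries as 1 group and without the 2 shallowest libraries. The replicate block lost Prg4 and called Hspa1a and Hspa1b, which lay below sham contralaterally there; it changed no other call. Genes that also had an unadjusted p under 0.05 in each hemisphere numbered 1 (Prg4), and 0 with limma-voom, quality weights, a minimum count of 30, the block, distinct transcripts, without the 2 shallowest and without the 3 libraries; this count has no value with the hemispheres summed or as 1 group. With each library left out in turn, the higher count ran from 0 to 4, the lower from 0 to 1 and the strict one from 0 to 2: 4 without ipsilateral replicate 5, 1 lower without sham replicate 5 (Egr1) and 1 lower without ipsilateral replicate 2 (Ppp1r1b).

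Glul changed sign, at -0.0782 with the replicate block, -0.0229 without the 2 shallowest libraries, -0.0618 without the 3 libraries, and, below 0 without sham replicate 1 or 2, contralateral replicate 5 or ipsilateral replicate 6, -0.0418 to 0.134 over all libraries left out in turn. Without sham replicate 1, Dnajc3, Adcy5 and Fos changed sign too; with each library left out they ran from -0.291 to 0.0295, from -0.929 to 0.0204 and from -1.08 to 0.0308. None of these was called, and the cause was not tested. The histone list had no tested member at a minimum count of 30. Of the list medians, 777 values moved by less than the spread between replicates and 22 by more. The shallow ipsilateral libraries limit genes of low level.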
